A study of Mus musculus with 8 samples.

Results

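The nuclear factor I (NFI) family consists of 4 genes in the mouse, Nfia, Nfib, Nfic and Nfix. They were taken by symbol from the deposited tables, which named 20512 genes on exons and 18655 on introns, and all 4 were found in both. RNA was compared between embryonic stem cells (ESC) of the hybrid line F1-21.6, of 129Sv-Cast/EiJ background, and neural progenitor cells (NPC) of 1 clone differentiated from that line. The ESC grew in serum with leukaemia inhibitory factor on feeder fibroblasts arrested with mitomycin C. There were 2 biological replicates of ESC and 2 of NPC, sequenced as 2 technical libraries each. The NPC replicates share their clone, and nothing in the labels ties an ESC replicate to an NPC replicate. No genotype was altered and no agent was compared.

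NFI proteins bind DNA as dimers of any of the 4 members, through a conserved N-terminal domain, at the palindrome of TTGGC and GCCAA or at 1 arm of it. Their C-terminal parts differ more and activate or repress transcription. In the developing nervous system NFIA and NFIB promote the switch of progenitors from making neurons to making glia, NFIX takes part in the maturation and quiescence of neural stem cells, and NFIC is best known for growth of the tooth root. Fibroblasts and many other cells also use NFI genes.

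The members resemble each other most in the part that codes for the DNA-binding domain, and the following stretches show how alike they are over the length of 1 read. Each is the 50 coding bases, from the longest GENCODE M21 coding sequence of the gene, in which most bases were shared by the 4 genes. Capitals mark the 41 bases that all 4 share.
Nfia: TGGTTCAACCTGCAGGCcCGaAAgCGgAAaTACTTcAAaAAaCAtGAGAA
Nfib: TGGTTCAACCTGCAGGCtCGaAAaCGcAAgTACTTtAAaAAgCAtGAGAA
Nfic: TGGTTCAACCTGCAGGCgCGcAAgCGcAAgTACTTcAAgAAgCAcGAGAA
Nfix: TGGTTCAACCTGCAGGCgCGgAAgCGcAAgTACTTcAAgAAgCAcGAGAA
Nfic and Nfix differed at 1 base in this stretch, and the other pairs at 6 or 7. Over the first 570 coding bases of Nfia, where the DNA-binding part lies, aligned bases were 73.9% to 81.3% identical between pairs of members. Over the remainder they were 54.8% to 66.3% identical. No run of 50 bases was shared by the transcripts of any 2 members, and the longest shared run was 32 bases, between Nfic and Nfix. Exact 50-base reads therefore separate the 4 genes, although how mismatches were treated was not given in the sources used here.

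Nfia, Nfib and Nfix were far higher in NPC than in ESC on exons, and Nfic was not. Exon levels are in RPKM, reads scaled by exon length and library depth, which the authors pooled over the libraries of a cell type, so they carry no replicate spread. Nfia, the member tied most closely to the start of gliogenesis, went from 0.534 RPKM in ESC to 110.1 in NPC, a ratio of 206. Its log2 fold change in the authors' deposited table was 7.57 (adjusted p = 2.57e-194), and 68 of 12509 tested genes had a larger one. Nfib, needed for forebrain and lung development, was at 5.80 and 231 RPKM, with a log2 fold change of 5.15 in the authors' deposited table (adjusted p = 3.64e-114). Nfix was at 1.20 and 36.1 RPKM, with 4.79 in the authors' deposited table (adjusted p = 1.72e-55). Nfic was at 8.60 and 11.2 RPKM, with 0.29 in the authors' deposited table (adjusted p = 0.393), and did not pass. The table gives no standard error, so how large a change of Nfic remains possible cannot be stated.

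By these calls 3 of the 4 members rose and none fell. Among the 12509 named genes that had an adjusted p and averaged 1 RPKM or more across ESC and NPC, 32.3% were called higher in NPC at an adjusted p under 0.05 and 33.9% lower, with a median log2 fold change of -0.07. The calls alone are therefore common in this comparison. The sizes are less so, since the log2 fold changes of Nfix, Nfib and Nfia lay above those of 96.4%, 97.2% and 99.4% of tested genes. That of Nfic lay above 58.4%. Nfia reached the minimum of 1 RPKM only through NPC (0.534 RPKM in ESC and 110.1 in NPC). In bulk RNA, a larger share of cells that express a gene and more RNA per cell cannot be told apart, and this holds for every level given here.

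**Figure D1:**
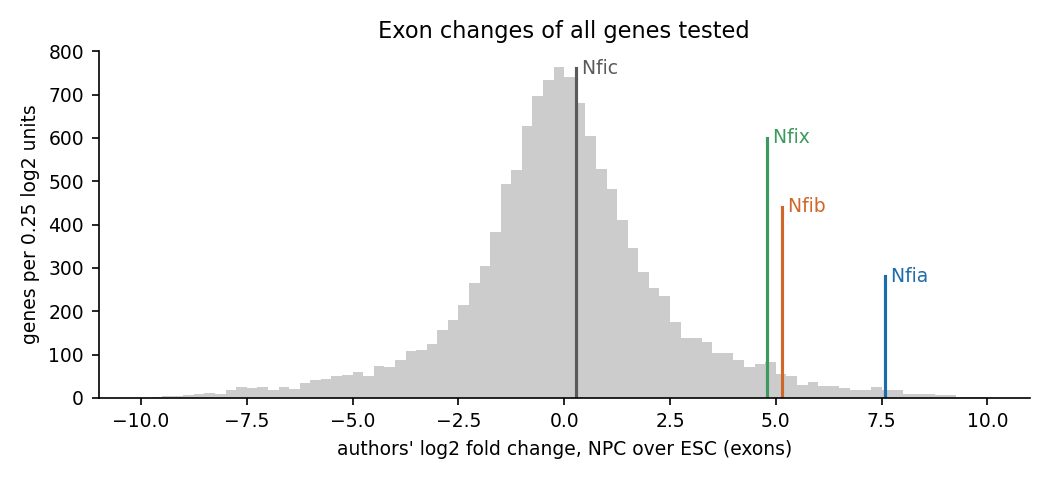
Histogram of the authors' log2 fold change of NPC over ESC on exons for the 12509 genes tested, in bins of 0.25 log2 units, with a line at each NFI gene (line heights carry no value). Nfix (4.79), Nfib (5.15) and Nfia (7.57) stand in the upper tail, and Nfic (0.29) near the middle.

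The make-up of the family was reordered. RPKM values are per length, so the members can be set beside each other. In ESC the order was Nfic, Nfib, Nfix and Nfia, and Nfic made up 53.3% of the summed RPKM of the family, Nfib 35.9%, Nfix 7.43% and Nfia 3.31%. In NPC the order was Nfib, Nfia, Nfix and Nfic, with 59.5%, 28.3%, 9.30% and 2.88% of the sum. The member that led the family in ESC was thus the lowest in NPC, and the member that was lowest in ESC came to stand next to the top. The summed RPKM of the 4 genes was 16.1 in ESC and 389 in NPC, 24.1 times as high, and without Nfic it was 7.53 and 377. With pooled values no spread can be put on these shares or on the order.

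Set among all named genes, the ESC levels were middling. In RPKM, Nfia exceeded 37.3% of them in ESC and 95% in NPC, Nfib 58.9% and 98.4%, and Nfix 43.6% and 82.3%. Nfic exceeded 63.4% and 63.1%, which leaves it at almost the same rank in both cell types.

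**Figure D2:**
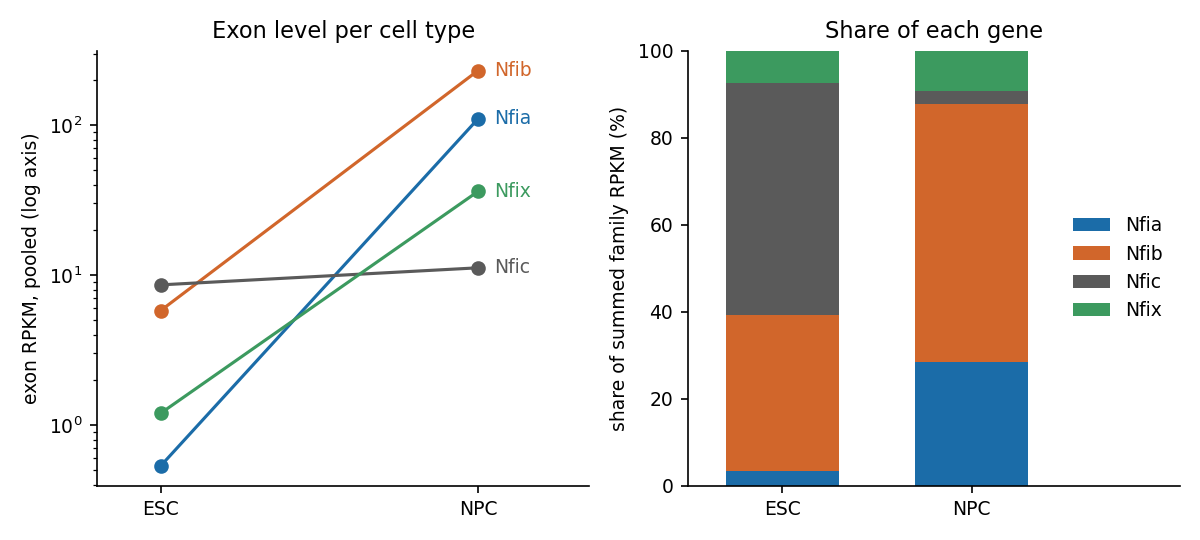
Left, pooled exon RPKM of each NFI gene in ESC and NPC on a log axis, with lines joining the 2 values of a gene. Right, the share of each gene in the summed RPKM of the family. The lines of Nfia, Nfib and Nfix climb across that of Nfic, whose share goes from 53.3% to 2.88%.

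Introns gave a value for each biological replicate and hence a spread. Intron reads can come from unspliced RNA, and their origin was not tested here. The values were read as RPKM of introns, and whole reads could be recovered from them (5536918 to 7002634 per replicate), so each value also has a 95% exact Poisson interval, which covers counting error only. Nfia introns were at 0.0802 RPKM in ESC replicate 1 (interval 0.0679 to 0.0941) and 0.0446 in ESC replicate 2 (0.0360 to 0.0546). In NPC they were at 2.82 in replicate 1 (2.75 to 2.90) and 6.14 in replicate 2 (6.02 to 6.26). Both NPC values lay far above both ESC values, and the NPC replicates lay further apart than counting error allows.

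Nfib introns were at 1.21 and 1.27 RPKM in the ESC replicates and 4.42 and 12.02 in the NPC replicates. The ESC replicates were nearly equal, and the NPC replicates differed by 2.72 times. Nfix introns were at 0.219 (0.174 to 0.273) and 0.175 RPKM (0.137 to 0.221) in ESC and 1.28 and 1.92 in NPC. Nfic introns were at 1.26 (1.09 to 1.46) and 0.972 RPKM (0.825 to 1.14) in ESC, and at 0.559 (0.444 to 0.696) and 0.789 (0.642 to 0.958) in NPC. For Nfic both NPC values lay below both ESC values, the opposite side from its exon value, and the counting intervals of ESC replicate 2 and NPC replicate 2 overlapped. How many of all genes have both NPC values on 1 side of both ESC values was not counted, so such a separation carries no weight by itself. Nfic and Nfix rest on the fewest reads, 180, 156, 80 and 101 for Nfic and 80, 72, 467 and 631 for Nfix in the same order of replicates.

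**Figure D3:**
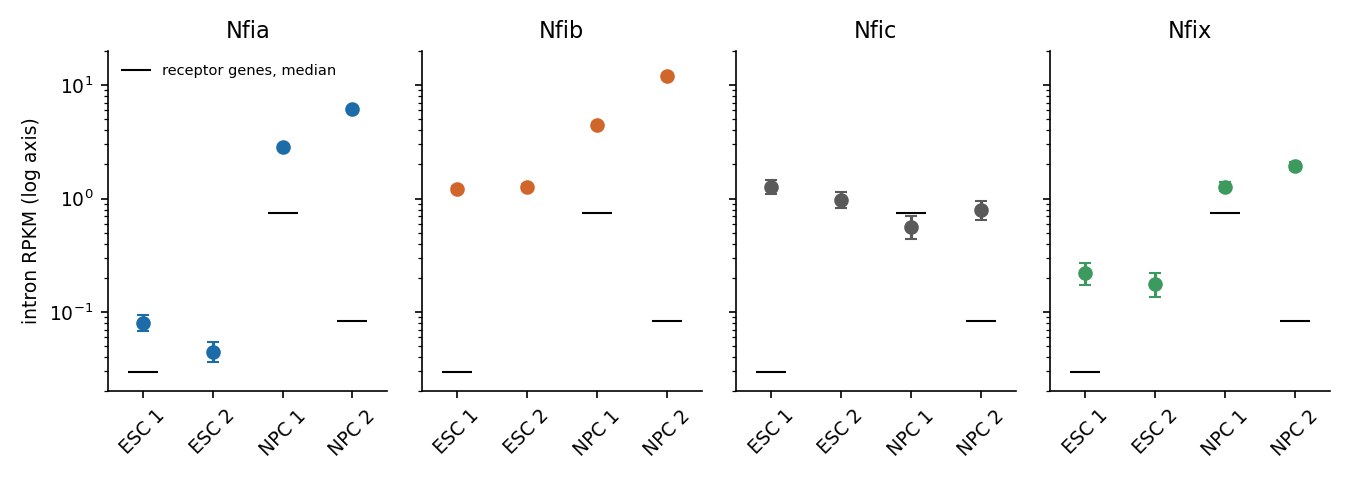
Intron RPKM of each NFI gene in each biological replicate on a log axis, with 95% exact Poisson intervals for counting error. Black dashes mark the median of 242 olfactory, vomeronasal and taste receptor genes in the same replicate (0 in ESC replicate 2 and not drawn). Nfia, Nfib and Nfix are higher in both NPC replicates, and Nfic in NPC replicate 1 (0.559) lies below the receptor gene median of 0.748.

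In the limma fit on log2(RPKM + 1) over the 8811 genes averaging 1 RPKM or more, Nfia rose by a log2 difference of 2.30 (SE 0.26, adjusted p = 6.16e-05) and Nfib by 1.91 (SE 0.38, adjusted p = 0.00184). The mean intron RPKM was 0.0624 ± 0.0252 in ESC and 4.48 ± 2.34 in NPC for Nfia, and 1.24 ± 0.0448 and 8.22 ± 5.37 for Nfib (SD, n = 2 each). Nfia thus met the minimum of 1 RPKM only through NPC, the group where it is high, whereas Nfib was above it in ESC as well. Without a minimum neither passed, as given below. In that fit 13.2% of genes were called higher in NPC and 34.0% lower, which is 1167 and 2998 genes. With the replicates shifted to a common median the counts were 2185 and 2165, and the median difference of all genes moved from -0.43 to -0.04. On that scaling Nfia and Nfib stood at 2.69 and 2.30. The log2(RPKM + 1) scale understates the change of low genes, and log2(RPKM + 0.1) gave 4.73 for Nfia (adjusted p = 0.000152) and 2.46 for Nfib (adjusted p = 0.00234).

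Nfic and Nfix had mean intron values of 0.896 and 0.899 RPKM, just under that minimum, and were read from the limma fit to all 18655 named genes. There 1.21% of genes were called higher and 5.04% lower, which is 226 and 940 genes, or 1179 and 2546 with the replicates shifted to a common median. Neither gene passed: Nfix stood at a log2 difference of 1.11 (SE 0.20, adjusted p = 0.0596) and Nfic at -0.34 (SE 0.18, adjusted p = 0.295). The means were 0.197 ± 0.0313 and 1.60 ± 0.459 RPKM for Nfix and 1.12 ± 0.207 and 0.674 ± 0.162 for Nfic (SD, n = 2 each). Nfix did pass in limma with a minimum of 0.2 RPKM (adjusted p = 5.24e-07), where 2251 of 17327 genes were called higher and 3184 lower. The ESC mean of Nfix (0.197 RPKM) was just under that minimum, which it met through NPC. At a common median Nfix passed in limma (0.87, adjusted p = 0.0073) and Nfic did not (-0.58, adjusted p = 0.0801). Nfia and Nfib did not pass in the limma fit without a minimum (adjusted p = 0.0526 and 0.1004). Nfib also lost its call without ESC replicate 1 or 2 (adjusted p = 0.192 and 0.185), with a log2 difference of 1.89 and 1.93.

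The NPC replicates differed in a way that touches these values. Receptor genes of smell and taste, which neither cell type is known to use, had a median intron level of 0.0295 RPKM in ESC replicate 1, 0 in ESC replicate 2, 0.748 in NPC replicate 1 and 0.0829 in NPC replicate 2. Against those medians Nfia, Nfib and Nfix stood 3.78, 5.91 and 1.71 times as high in NPC replicate 1 and 74.0, 145 and 23.2 times as high in NPC replicate 2. Nfic stood at 0.748 and 9.51 times. With each replicate's receptor median subtracted, an alternative chosen after seeing the data, Nfia and Nfib stayed called at 2.15 and 1.80 in limma (adjusted p = 2.86e-06 and 0.00934). In the limma fit to all genes, Nfix was then at 0.82 (adjusted p = 0.258) and Nfic at -0.68 (adjusted p = 0.295). That fit called 0 of 18655 genes in either direction.

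From NPC replicate 1 to NPC replicate 2 the median gene differed by 0.42 on the log2(RPKM + 1) scale. Nfia differed by 0.90, more than 82.1% of the 8811 genes, and Nfib by 1.26, more than 95.2%. Nfix (0.36) and Nfic (0.20) differed by less than the median gene. The ESC replicates differed by 0.01 in the median gene and by -0.20 to 0.04 in the 4 members. What set the NPC replicates apart was not tested.

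The order of the members on introns was Nfib, Nfia, Nfix and Nfic in both NPC replicates. In the ESC replicates Nfib and Nfic were interleaved (1.21 and 1.27 against 1.26 and 0.972 RPKM) and did not differ beyond their spread, followed by Nfix and then Nfia. The exon order in ESC, with Nfic above Nfib, was thus not seen as a separation on introns.

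The signed log2 ratio of NPC over ESC was higher on exons than on introns in each member, and for Nfic the 2 ratios had opposite signs. In exon RPKM the ratio was 7.69 for Nfia, 5.32 for Nfib, 4.91 for Nfix and 0.38 for Nfic, and in mean intron RPKM it was 6.17, 2.73, 3.02 and -0.73. The gap was 1.52, 2.59, 1.90 and 1.11 in that order, against a median of 0.34 over 11791 genes. It exceeded the gap of 88.7%, 97.9%, 93.8% and 79.7% of those genes. With NPC replicate 2 alone, the replicate with the lower receptor level, the gaps were 1.07, 2.04, 1.63 and 0.88 against a median of 0.22. They then exceeded the gap of 80.5%, 94.7%, 90.8% and 75.5% of genes. Nfib introns amounted to 21.4% of its exon RPKM in ESC and 3.56% in NPC, the widest shift of the 4, while Nfic introns went from 13.0% to 6.03%. The median also fell, from 11.0% in ESC to 8.80% in NPC, over 9890 genes of at least 1 RPKM on exons in both. The denominators recovered for the intron columns, 5186790 to 6500767, were below the intron reads recovered from each. Those read totals are upper values, since the longest intron length was used where several fitted (only 1 fitted for 16937 of 18447 genes). Exon denominators are not known, so exon and intron RPKM may be scaled to unlike totals. The percentages, the gaps and the opposite signs for Nfic depend on that scaling. A factor common to all genes would leave the rank of each gap unchanged, but the rank does depend on how the NPC replicates are combined. Exon and intron values come from the same libraries and are not independent of each other, and the cause of the gap was not tested.

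The deposited starts, in build mm9, place Nfia at position 97248634 and Nfib at 82144673 of chromosome 4, Nfic at 80883543 of chromosome 10 and Nfix at 87298268 of chromosome 8. The start nearest to Nfia, 2.6 kb away, belongs to E130114P18Rik, a transcript on the opposite strand. Its exon level went from 0.267 RPKM (ESC) to 247 (NPC) (log2 fold change 9.67 in the authors' deposited table, adjusted p = 1.01e-117), so the neighbour was above Nfia itself in NPC. Its intron window was at 0.0660 and 0.0150 RPKM in the ESC replicates and 1.75 and 1.98 in the NPC replicates. Unlike the values of Nfia, these hardly differed between NPC replicates, but they were 2.34 and 23.9 times the receptor gene medians there. The window runs from 97235656 to 97444681. Most of it lies upstream of the deposited start of this minus-strand gene, 97251282, so the values may not be those of its own introns. The intron windows of the pair do not overlap, since that of Nfia starts 5 bases after the other ends, 196.1 kb into the gene. In GENCODE M21 their exons share 4 bases, of 10891 in Nfia and 2046 in E130114P18Rik. Whether counting used strand was not given in the sources used here, and the intron window of E130114P18Rik covers the first 196.1 kb of Nfia from its deposited start. Without strand, unspliced Nfia RNA from that stretch cannot be told apart from introns of E130114P18Rik.

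Around the other members the neighbours were mixed. Mpdz, a scaffold protein of cell junctions and the neighbour on one side of Nfib, rose from 2.46 to 29.2 RPKM (log2 fold change 3.41 in the authors' deposited table, adjusted p = 2.18e-43). On the other side the palmitoyltransferase Zdhhc21 rose from 10.8 to 20 RPKM (0.73, adjusted p = 0.00515, authors' deposited table). Beside Nfic, the RNA-binding factor Celf5 fell from 3.09 to 0.619 RPKM (-2.43, adjusted p = 5.94e-07, authors' deposited table) and Smim24 was under 1 RPKM in both. Beside Nfix, the secreted antagonist Dand5 rose from 1.19 to 10.4 RPKM (2.92, adjusted p = 3.46e-08, authors' deposited table), and Lyl1 stayed under 1 RPKM. Gm12695, on the far side of Nfia, was under 1 RPKM too.

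Promoter sequence was looked at because Nfia and Nfix rose while Nfic did not. The RefSeq table for build GRCm38.p6 held a start for 3 of the 4 members, Nfia, Nfic and Nfix, and the windows of 300 bases shown here span it. For Nfix, which has 4 starts in the table, the most upstream is shown. Capitals mark CpG dinucleotides.
Nfia, chr4:97581693-97581992, plus strand: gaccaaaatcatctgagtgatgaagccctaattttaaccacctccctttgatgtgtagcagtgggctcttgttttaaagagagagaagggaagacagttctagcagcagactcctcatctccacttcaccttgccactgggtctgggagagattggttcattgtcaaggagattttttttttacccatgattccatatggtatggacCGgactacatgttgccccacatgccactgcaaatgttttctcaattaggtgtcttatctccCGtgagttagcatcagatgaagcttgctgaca
Nfic, chr10:81427124-81427423, minus strand: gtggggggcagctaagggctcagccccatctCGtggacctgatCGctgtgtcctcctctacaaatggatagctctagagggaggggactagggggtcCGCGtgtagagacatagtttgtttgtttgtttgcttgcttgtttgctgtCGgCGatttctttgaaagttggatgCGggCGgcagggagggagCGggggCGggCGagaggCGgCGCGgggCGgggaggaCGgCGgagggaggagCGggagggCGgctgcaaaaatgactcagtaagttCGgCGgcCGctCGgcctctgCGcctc
Nfix, chr8:84780033-84780332, minus strand: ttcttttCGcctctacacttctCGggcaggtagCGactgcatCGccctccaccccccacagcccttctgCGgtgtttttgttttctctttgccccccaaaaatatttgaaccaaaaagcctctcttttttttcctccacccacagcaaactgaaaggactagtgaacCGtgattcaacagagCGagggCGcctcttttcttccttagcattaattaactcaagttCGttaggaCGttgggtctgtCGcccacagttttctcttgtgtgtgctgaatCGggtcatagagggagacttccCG
The Nfic window held 24 CpG dinucleotides, more than 80.0% of the 32851 windows in the table, and the Nfix window held 13, more than 62.1%. The Nfia window held 2, more than 14.1%, against a median of 7. Nfia had only 1 start in the table. Its intron window begins 196.1 kb after its deposited mm9 start, and a promoter nearer to that window would not be covered here. The windows of the other Nfix starts held 4, 9 and 2, so the contrast of Nfix with Nfia depends on the start chosen. Which starts the cells used was not tested. GC content was 63.0% for Nfic, 49.3% for Nfix (57.3%, 53.0% and 44.3% at its other starts) and 44.7% for Nfia. With 3 genes this is a description only. The letters TTGGC, on either strand, occurred in none of these 3 windows and in 46.7% of all windows; the windows of the other Nfix starts held it 1, 1 and 2 times. TGGCA, which overlaps it, occurred at 2 places in the Nfia window, in neither of the others and in 48.9% of all. The palindrome of TTGGC and GCCAA set 5 bases apart was in none of the 3 and in 12 of all windows.

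Genes whose pattern lay nearest to each member were found by Euclidean distance over 6 values on the log2(RPKM + 1) scale, exons in ESC and NPC and introns in the 4 replicates, among 17965 genes in both tables. Among the genes nearest to Nfia were 2810459M11Rik (distance 0.29) and Mlc1 (0.53), a membrane protein of astrocytes. Mlc1 was at 0.280 and 148 RPKM on exons. Nfib was nearest to Zeb1 (0.94), a zinc finger repressor, Snn (0.99) and Lrig1 (1.00), a regulator of growth factor receptors. Nfix was nearest to the LIM protein gene Lmo1 (0.22), the Rac exchange factor gene Prex1 (0.26) and Lhfpl4 (0.33), and Nfic to Wdr34 (0.32), Zfp874b (0.39) and Gfod2 (0.43). The members lay farther from each other than from these genes, at distances of 2.25 (Nfia and Nfix) to 5.46 (Nfib and Nfic). The nearest genes were read from the same values as the levels above and say nothing more about them.

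Genes that work upstream of NFI factors or beside them were mostly higher in NPC. Of the 9 tested inducers and partners, 7 rose and 1 fell, and their median log2 fold change was 4.76 against -0.07 over all tested genes, of which 32.3% were called higher and 33.9% lower. Sox9, which induces Nfia in the spinal cord, rose from 0.697 to 27.8 RPKM (log2 fold change 5.17 in the authors' deposited table). Olig2, a factor of ventral progenitors that opposes NFIA in glial precursors, rose from 0.686 to 448 RPKM (9.18), and Pou3f2, a POU factor of neural progenitors, from 0.265 to 49.9 RPKM (7.37). Rbpj, the DNA-binding partner of Notch, fell from 25.8 to 7.82 RPKM (-1.87), and Ski, a corepressor, was at 37.2 and 32.8 RPKM and did not pass (-0.31).

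Glial genes that have been studied with NFI factors were nearly all higher in NPC. Of 12 tested, 11 rose and none fell, against 32.3% and 33.9% of all tested genes, and their median log2 fold change was 6.31 against -0.07. S100b, a calcium-binding protein of glia, rose from 0.378 to 388 RPKM (9.80 in the authors' deposited table) and Fabp7, a fatty acid carrier of radial glia, from 13.7 to 10684 RPKM (9.43). Gfap, the intermediate filament of astrocytes and a classic NFIA target, rose from 0.412 to 67.3 RPKM (7.17), and Apcdd1, a Wnt antagonist, from 5.89 to 93.2 RPKM (3.84). Aldh1l1, a folate enzyme of astrocytes, was at 3.94 and 7.26 RPKM and did not pass (0.71).

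Progenitor genes reported to be under NFI control held members on both sides. Of 7 tested, 4 rose and 2 fell, with a median of 1.47, against 32.3% and 33.9% of all tested genes and a median of -0.07, so the count that fell is near the background. Hes5, a Notch target, rose from 0.263 to 74.8 RPKM (7.85 in the authors' deposited table), Nes, the intermediate filament nestin, from 39.7 to 249 RPKM (2.48), and Hes1, reported to be repressed by NFIA in the cortex, from 100.6 to 329 RPKM (1.60). Insc, an adaptor of spindle orientation, fell from 1.75 to 0.338 RPKM (-2.45) and the HMG factor Bbx from 36.1 to 27.4 RPKM (-0.55). Ezh2, the Polycomb methyltransferase reported to be repressed by NFIB, was at 78.5 and 71.4 RPKM and did not pass (-0.29). Of 3 tested neuronal genes from studies of granule neurons, Cdh2 and Ephb1 rose and Nfatc4 fell, and of 2 tested muscle genes from studies of NFIX, Mef2c rose (6.13) and Eno3 fell (-2.29). Cdh2, the neural cadherin, was at 2.65 and 98.4 RPKM. These lists hold genes known from NFI studies in other cells, and nothing here shows that NFI proteins acted on them.

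**Figure D4:**
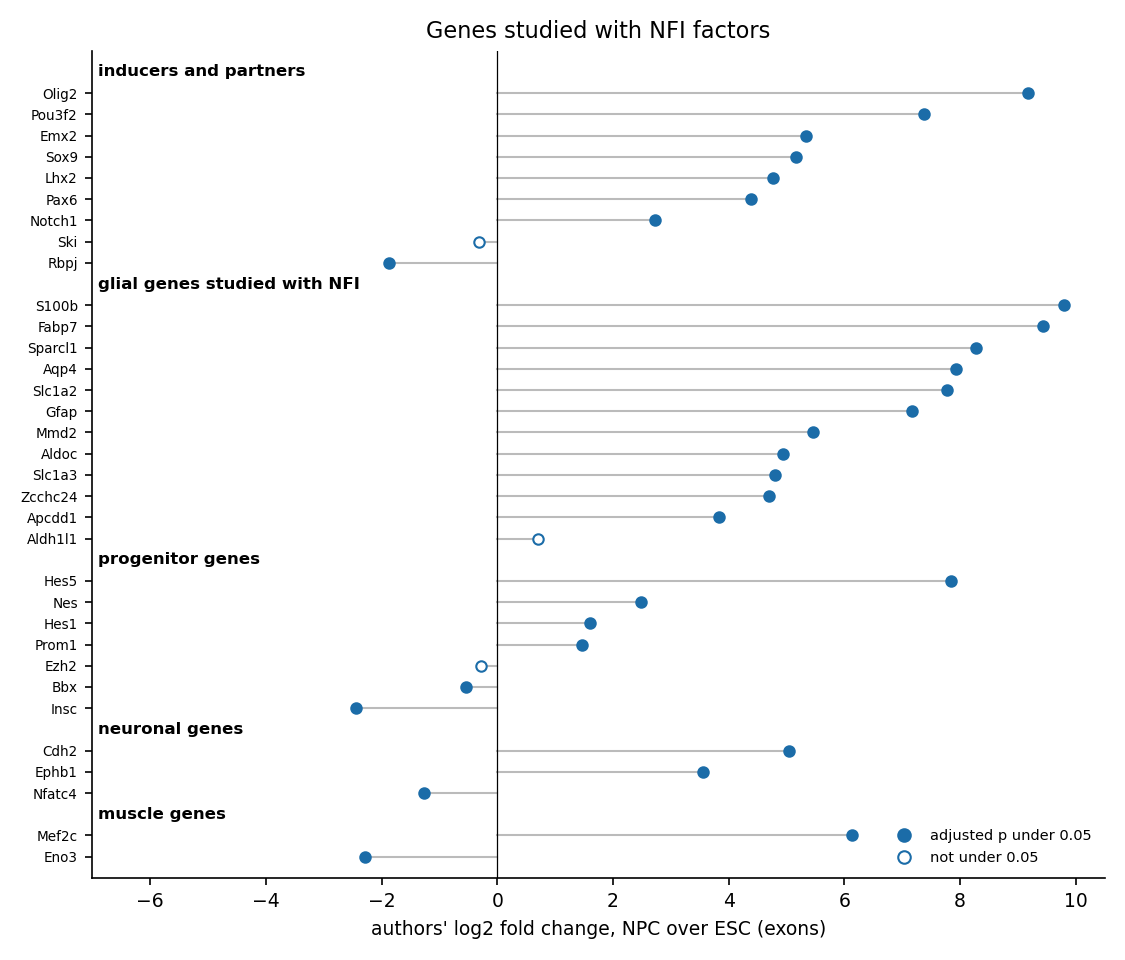
The authors' log2 fold change of NPC over ESC on exons for each tested gene of 5 lists of genes studied with NFI factors, filled where the adjusted p was under 0.05. In the glial list 11 of 12 genes rose and Aldh1l1 (0.71) did not pass, whereas the progenitor list holds genes on both sides of 0.

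Markers of the cell types were as follows on exons. All 6 pluripotency genes fell, with summed RPKM of 5484 in ESC and 12.6 in NPC, and all 6 radial glia genes in the table rose, with sums of 462 and 14205. Of 6 astrocyte genes 5 rose (sums 5.17 and 651), so the NPC clone carried astrocyte markers together with progenitor markers. Of the oligodendrocyte lineage genes, Olig1 and Olig2 rose, while Sox10 and Mbp were under 1 RPKM in both cell types. Of 3 tested neuron genes, Dcx, a microtubule protein of young neurons, rose from 0.0639 to 33.8 RPKM, while Stmn2 fell from 160.5 to 0.792 and Tubb3 from 76.8 to 16.8. The neuron list summed to 238 RPKM in ESC and 52.7 in NPC, and its part in the NFI levels was not tested. Of 10 fibroblast genes, listed because the ESC grew on feeders and fibroblasts use NFI genes, 6 fell and 1 rose. Their summed RPKM was 48.8 in ESC and 45.9 in NPC, and 44.2 and 10.7 without Fbn1, the gene that rose (4.56 to 35.1), with single genes between 0.634 and 13.0 in ESC, and Col1a1, the main fibroblast collagen, was at 4.96 and 0.337. The ESC levels of Nfib (5.80), Nfic (8.60) and Nfix (1.20) lie in the range of those fibroblast genes, while Nfia (0.534) lies below it, and the part of feeder RNA in them was not tested.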

How the data were processed

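RNA depleted of ribosomal RNA was sequenced from 8 libraries, 2 technical libraries for each of 2 biological replicates of ESC and NPC. The authors deposited an exon table with the RPKM pooled per cell type, a log2 fold change and an adjusted p-value. DESeq2 1.10.0 and build mm9 are named per the submitters' processing notes. Aligner, counter, annotation and any use of strand were not given in the sources used here. In the authors' deposited intron table each biological replicate has 1 value, and the RPKM unit was inferred: all 18447 genes above 0 gave whole reads, within a tolerance of 1e-06 reads, once divided by an intron length and a denominator per column. Recovered reads per replicate were 6215905 and 7002634 in ESC and 6130041 and 5536918 in NPC. These are upper values, because the longest length was taken where several fitted. For Nfia and Nfib a shorter intron length fits equally well; the longer was used, and with the shorter one their counting intervals would be wider. Genes without a name (84 on exons, 64 on introns) and, for exon calls, the 2350 named genes without an adjusted p were left out.

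Exon results were read as deposited, at a mean of at least 1 RPKM and an adjusted p under 0.05. Introns were tested with limma 3.58.1 (R 4.3.3) with a mean-variance trend on log2(RPKM + 1), NPC against ESC, with Benjamini-Hochberg adjustment over all genes tested. The same fit without a minimum served for members under 1 RPKM. P-values measure the spread between these samples, and the NPC replicates share 1 clone. The fit and the read recovery were tested on simulated data. The simulation for the fit gave every gene and replicate the same spread, taken from ESC, so it does not cover the wider difference between the NPC replicates. Alternatives were other pseudocounts (0.1 and 0.5), minimums (0.2 and 10 RPKM) and scalings, no variance trend, a replicate left out and a replicate block. Coding sequences from GENCODE M21 were aligned with MAFFT 7.526. The members and gene lists were chosen with earlier results of these data known. Besides the members, the text names the genes next to each by start position, the 3 nearest by distance (for Nfia 1 of them is not reported here), and from each list the 2 largest and 2 smallest changes plus Sox9, Olig2, Gfap, Fabp7, Hes1 and Ezh2. Further list genes (Notch partners, neuronal and muscle genes, markers) were named after their values were seen, and 1 marker is not reported here.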

Additional observations from a re-analysis of the deposited data

How the results depend on the processing

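The exon calls were read as deposited, so a minimum could not change the call of a member and tests nothing about it. Nfic had no value at a mean of at least 10 RPKM. That minimum lowered the exon calls higher in NPC to 2534. Log2 ratios of pooled RPKM were 7.69 (Nfia), 5.32 (Nfib), 0.38 (Nfic) and 4.91 (Nfix). Without the lowest member, the shares in ESC were 37.2% for Nfib, 55.1% for Nfic and 7.68% for Nfix, and in NPC 29.2% for Nfia, 61.2% for Nfib and 9.58% for Nfix.

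On introns no member changed direction under any alternative run. Without a minimum Nfia (2.30) and Nfib (1.91) lost their calls. Nfix gained a call with a minimum of 0.2 RPKM (1.11) and at a common median (0.87). Leaving out 1 replicate gave 1.85 to 2.75 for Nfia, 1.27 to 2.54 for Nfib, -0.44 to -0.24 for Nfic and 0.93 to 1.29 for Nfix. Nfix was called without NPC replicate 1 (1.29, adjusted p = 0.0312) or NPC replicate 2 (0.93, adjusted p = 0.0117), and Nfib was not called without either ESC replicate. In these fits the lone sample is assumed to vary like the other group. Beyond the shift from fewer or more genes tested, the cause was not tested.

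Intron calls higher in NPC, 1167 in limma, were 753 without the variance trend, 2185 at a common median, 507 with the receptor median subtracted, 2251 with a minimum of 0.2 RPKM, 226 without a minimum and 488 to 2344 with a replicate left out. Calls lower were 940 without a minimum and 1106 to 5295 with a replicate left out. With the replicate number as a block the fit called 1145 genes higher and 2632 lower and changed no call of a member (Nfia 2.30, Nfib 1.91, Nfic -0.34, Nfix 1.11). Deviations of same-numbered replicates correlated at 0.019, and 2 pairs are too few to show a pairing. A count test on the recovered reads, planned as an alternative, was computed but is not reported, because the deposited unit is RPKM and only tests on a log scale were kept. Intron reads per replicate were fewest for Nfic (80 to 180) and, in ESC, for Nfix (80 and 72).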
